A study of Homo sapiens with 16 samples.

Results

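The genes described here encode 6 enzymes that make or interconvert nucleotides (CAD, ATIC, UCK2, CMPK1, DTYMK and RRM2) and ornithine decarboxylase (ODC1), the entry enzyme of polyamine synthesis. They were taken by symbol, 7 of 1983 gene symbols that could be attached to the transcripts of the data set, with 1 transcript per gene, the one with most mRNA-Seq counts. All 7 were counted in the ribosome profiling libraries, and 6 of them, among 10970 transcripts tested, also had mRNA counts under the same identifier and coding length. The seventh, RRM2, was matched only among 12242 transcripts tested in the ribosome profiling libraries, and its mRNA level and translational efficiency were not analysed here.

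The data came from HEK293T cells, an established human embryonic kidney line. The 4 groups were untreated cells, cells given 1 µg/ml tunicamycin (Tm), cells given 1 µg/ml Tm together with 200 nM ISRIB, and cells given 200 nM ISRIB, all treatments lasting 1 hr. Tm blocks N-linked glycosylation in the endoplasmic reticulum (ER) and so provokes ER stress, and ISRIB is a small molecule that makes cells insensitive to phosphorylation of the translation initiation factor eIF2α. Every group comprised 2 biological replicates (a and b). Lysates were split between Ribo-Seq, which counts ribosome-protected fragments (RPFs), and mRNA-Seq, giving 16 libraries. Joined RPF counts per library ran from 3001612 (Tm b) to 11469150 (untreated b), and mRNA counts from 8466193 (ISRIB b) to 24499266 (Tm + ISRIB b). In untreated a the joined transcripts held 7966904 of 8330380 RPF counts on coding transcripts, but only 11724251 of 37170669 mRNA counts. Each mRNA level and change below is thus that of 1 transcript entry, without reads given to other entries of the gene. Every level below is a CPM value, the count over the library size as adjusted by TMM (a trimmed mean of log ratios between libraries), so that a shift shared by all mRNAs cannot be seen. In mRNA-Seq the replicates of ISRIB lay furthest apart, with a chi-square of 12.2 per degree of freedom against 2.16 to 5.48 in the other 3 groups. All 4 treatments shared 1 estimate of spread in each fit, so every mRNA and efficiency p-value below rests in part on those libraries. In Ribo-Seq the untreated replicates lay furthest apart, at 5.35 against 1.64 to 2.17 in the other 3 groups. All RPF changes against untreated cells rest on that pair. ATF4, an mRNA known to be translated better when eIF2α is phosphorylated, had 81.7 and 61.6 RPF CPM in untreated cells, 455 and 464 in Tm, 53.7 and 66.3 in Tm + ISRIB, and 45.3 and 43.5 in ISRIB. High ATF4 footprints were thus seen in both Tm Ribo-Seq libraries and in no other, and the labels of the mRNA-Seq libraries were not checked this way.

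Nucleotides reach the cell by de novo synthesis and by salvage of preformed nucleosides. Purine and pyrimidine rings are built on or joined to a ribose phosphate, kinases then add phosphates, and ribonucleotide reductase turns ribonucleotides into the deoxynucleotides used for DNA. Polyamines are small cations derived from ornithine that bind nucleic acids, and ODC1 is known for tight control at several levels, including translation, in growing cells. When eIF2α is phosphorylated under ER stress, initiation falls on most mRNAs, and the change seen for a given mRNA in profiling data is its change relative to the others.

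ODC1 had the largest change in footprints of the 7. Its footprints fell by 35.9% in Tm and stood 8.04% above untreated cells, a difference that did not pass the test, when ISRIB was given with Tm, while its mRNA level was 3.26% and 5.66% higher than in untreated cells. The 6 nucleotide enzymes kept RPF changes between -0.20 and 0.12 on the log2 scale in Tm, and none of them passed a false discovery rate (FDR) of 0.1. At the mRNA level CAD fell by 26.4% in Tm, while neither its footprints nor its efficiency passed the test in Tm. In Tm + ISRIB the footprints of RRM2 were 15.1% lower than in Tm alone. The calls of CAD mRNA and of RRM2 footprints were lost when single libraries were left out.

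In untreated cells the 7 transcripts covered a wide range of footprint density, which is given per kilobase of counted coding sequence so that genes can be compared. RRM2 had 328 ± 22.1 RPF CPM per kb (SD, n = 2) and ATIC 322 ± 2.75, and their libraries overlapped. ODC1 followed with 203 ± 16.8, CMPK1 with 184 ± 2.33, UCK2 with 168 ± 9.19 and DTYMK with 133 ± 20.1. CAD was lowest at 43.2 ± 3.41, still above 67.8% of the transcripts tested. The order of mRNA levels per kb was different, with ODC1 first at 493 ± 10.5 mRNA CPM per kb, above 97.6% of transcripts, then UCK2 at 184 ± 10.6, DTYMK at 134 ± 8.48, CMPK1 at 87.5 ± 0.637, ATIC at 81.5 ± 0.621 and CAD at 49.9 ± 0.911. Translational efficiency, taken here as RPF CPM over mRNA CPM of the same lysate, therefore spread from 0.412 ± 0.0253 for ODC1, higher than only 12.6% of transcripts, to 3.95 ± 0.00363 for ATIC, higher than 93.5%. The mRNA-Seq files count reads for several isoforms of a gene, so this ratio carries the share of reads that each isoform was given.

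**Figure D1:**
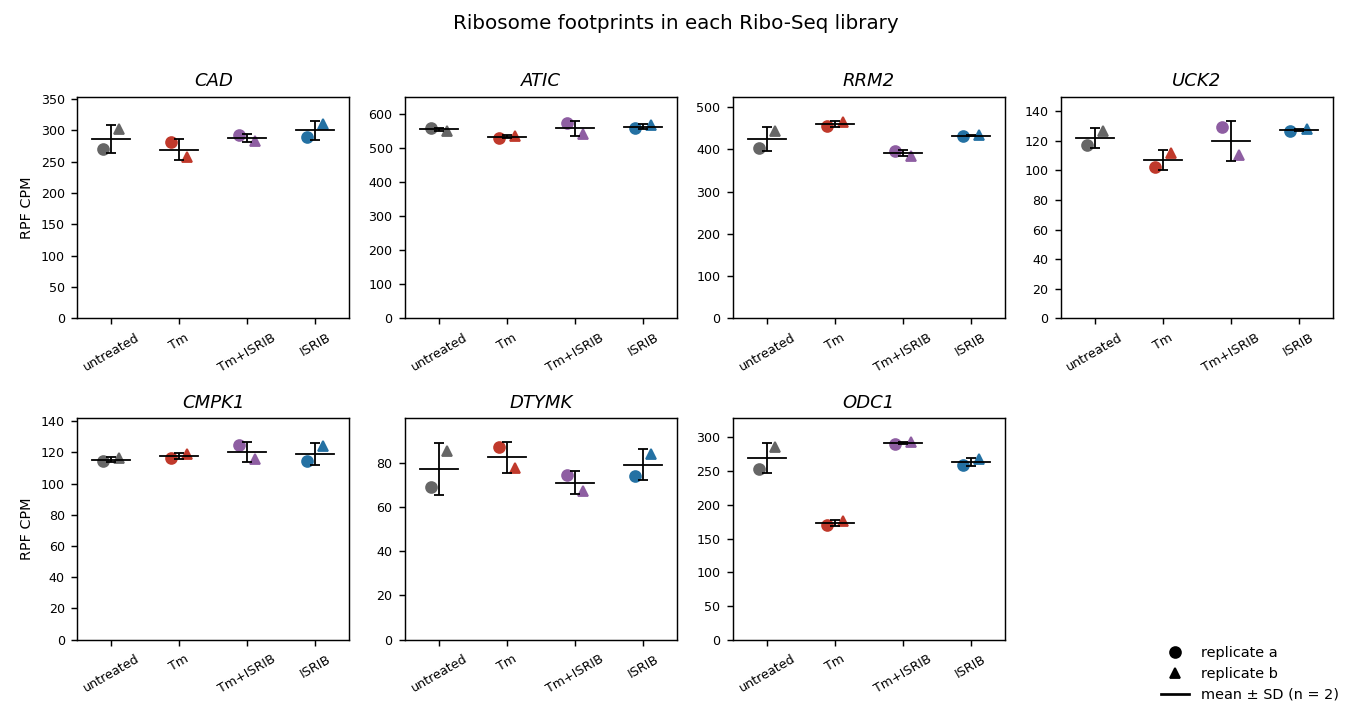
RPF CPM (vertical axes, from 0) of the 7 transcripts in the 8 Ribo-Seq libraries, grouped by treatment, with circles for replicate a, triangles for replicate b, and bars for the mean ± SD (n = 2). In the ODC1 panel both Tm libraries, at 170.5 and 175.8, lie below the other 6, which lie between 253.7 and 292.6. The Tm libraries also lie apart from the rest for ATIC (529.6 and 534.8, next 540.8) and RRM2 (455.2 and 465.4, next 443.9). The changes of ATIC and RRM2 with Tm did not pass the test. Tm and untreated pairs lay apart, in either order, for 51.3% of 10970 transcripts.

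ODC1 decarboxylates ornithine to putrescine and sets the pace of polyamine synthesis. Its RPF level was 253.7 and 285.2 CPM in untreated cells, 170.5 and 175.8 in Tm, 290.3 and 292.6 in Tm + ISRIB, and 259.3 and 268.3 in ISRIB. Both Tm libraries were below all others, and the Tm + ISRIB libraries were slightly above the untreated ones. Separate pairs, in either order, were common among all transcripts in RPFs. Their share was 51.3% for Tm against untreated, 55.4% for Tm + ISRIB against Tm and 41.4% for Tm + ISRIB against untreated. With Tm, RPFs fell by 0.64 on the log2 scale (SE 0.0784, adjusted p = 1.1e-06, edgeR quasi-likelihood test with Benjamini-Hochberg adjustment over all transcripts), the 238th lowest of 10970 changes. ISRIB given with Tm raised RPFs 1.69-fold over Tm alone (log2 0.75, SE 0.0794, adjusted p = 5.9e-08). The approximate 95% interval of the fall, -0.80 to -0.49, did not overlap that of any nucleotide enzyme, of which UCK2 reached lowest, at -0.38.

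ODC1 mRNA was abundant and nearly level with Tm. It stood at 643.6 and 663.4 CPM in untreated cells, 693.7 and 656.0 in Tm, 688.3 and 692.6 in Tm + ISRIB, and 633.6 and 562.5 in ISRIB. The Tm libraries overlapped the untreated ones, and the difference was 0.05 on the log2 scale (95% interval -0.10 to 0.19, adjusted p = 0.74). Translational efficiency accordingly went from 0.394 and 0.430 in untreated lysates to 0.246 and 0.268 in Tm, and to 0.422 in both Tm + ISRIB lysates. It fell by 0.69 on the log2 scale with Tm (SE 0.109, adjusted p = 4.9e-04) and was 0.72 higher in Tm + ISRIB than in Tm (SE 0.109, adjusted p = 7.9e-04).

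The Tm effect itself differed with ISRIB present. On ODC1 footprints the effect with ISRIB (Tm + ISRIB against ISRIB) was 0.78 higher on the log2 scale than the effect without it (Tm against untreated, SE 0.108, adjusted p = 6.2e-05), a test that ODC1 alone of the 7 passed, beside 6.9% of all transcripts. In translational efficiency the same difference was 0.62 (SE 0.152, adjusted p = 0.061), again passed by ODC1 alone of 6, beside 1.43% of all transcripts. This efficiency difference uses the ISRIB mRNA pair noted above. Of the 6, 3 had an unadjusted p under 0.05, and the value for DTYMK was about as large with the opposite sign, at -0.61 (SE 0.206, adjusted p = 0.18), with -0.26 in RPFs and 0.36 in mRNA. The efficiency call of ODC1 is not firm, since it was lost when untreated b, ISRIB a or any of the Tm and Tm + ISRIB libraries was left out, with values between 0.50 and 0.68. For mRNA no member passed, 2 of 6 had an unadjusted p under 0.05, and DESeq2 called none. Over all transcripts the share called in mRNA was 0%, with 956 at an unadjusted p under 0.05 and 16 called by DESeq2.

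The leader of an mRNA, the part before its start codon, is where initiation is set, and it is shown for ODC1 because ODC1 carried the change in footprints. In GENCODE v29 (GRCh38) ODC1 lies on the minus strand of chromosome 2, from 10439968 to 10448504. Of 2 annotated transcripts with the counted coding length and the same principal rank, the one with the lower identifier was used, with a leader of 511 nt that is 69.5% G or C, while the other has a leader of 434 nt with 5 upstream ATG triplets. Among 1824 of 1935 tested transcripts with a symbol that could be matched to GENCODE by symbol and coding length, the median leader was 183 nt, and 9.54% had a leader at least as long. The start codon of ODC1, with the 9 bases before it and 1 after, and both upstream ATG triplets found on the sense strand of the leader are printed with the ATG in capitals.
ODC1 start codon: caagaaatcATGa
ODC1 upstream ATG at 384 nt before the start codon: tgcgtctccATGg
ODC1 upstream ATG at 161 nt before the start codon: cgcttccccATGg
The frame opened by the first upstream ATG runs for 8 codons and closes within the leader. It is printed with its start and stop triplets in capitals.
ODC1 first upstream frame: ATGgcgacccgccggtgctataagTAG
The frame of the second runs for 10 codons and also closes in the leader. An ATG in the leader is common, found in 49.7% of the matched transcripts, and these letters are a description of the annotated sequence, not of where ribosomes sat.

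CAD is the large protein that carries the opening activities of de novo pyrimidine synthesis, carbamoyl phosphate synthetase, aspartate transcarbamylase and dihydroorotase. Its RPF level was 269.8 and 301.7 CPM in untreated cells, 280.7 and 257.4 in Tm, 292.9 and 283.5 in Tm + ISRIB, and 289.4 and 310.7 in ISRIB. The Tm and untreated libraries overlapped, and the change with Tm was -0.09 on the log2 scale (95% interval -0.24 to 0.07, adjusted p = 0.54). CAD mRNA was 334.5 and 326.0 CPM in untreated cells, 232.4 and 253.6 in Tm, 207.9 and 266.7 in Tm + ISRIB, and 272.0 and 365.8 in ISRIB. All Tm and Tm + ISRIB libraries lay below both untreated ones. In mRNA these pairs also lay apart, in either order, for 60.5% (Tm) and 63.1% (Tm + ISRIB) of all transcripts. The mRNA fell by 0.44 on the log2 scale in Tm (SE 0.138, adjusted p = 0.092) and by 0.48 in Tm + ISRIB (SE 0.136, adjusted p = 0.066). The first call was lost without any one of the 4 libraries, at values of -0.51 to -0.38 (adjusted p from 0.253 to 0.389), in fits that called 0 to 214 of all transcripts in place of 1209, and the second without either untreated library or without Tm + ISRIB a, the lowest of the 8 (-0.31 without it, adjusted p = 0.369). ISRIB a, a library from cells that had no Tm, was also below both untreated libraries in CAD mRNA, and the part of that library difference in the result was not tested. CAD efficiency was 0.807 and 0.925 in untreated lysates, 1.21 and 1.02 in Tm, 1.41 and 1.06 in Tm + ISRIB, and 1.06 and 0.849 in ISRIB. It rose in Tm + ISRIB against untreated cells (log2 0.49, SE 0.162, adjusted p = 0.088), a call that was lost without either untreated replicate (log2 0.39 and 0.59) or without Tm + ISRIB a (log2 0.30), and in Tm it was 0.36 higher (adjusted p = 0.18).

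ATIC carries out the closing steps of de novo purine synthesis, which end in inosine monophosphate. Its footprints were among the steadiest of the 7, at 556.8 and 550.1 CPM in untreated cells, 529.6 and 534.8 in Tm, 572.2 and 540.8 in Tm + ISRIB, and 556.9 and 566.4 in ISRIB. The change with Tm was -0.06 on the log2 scale (95% interval -0.19 to 0.07, adjusted p = 0.66). Its mRNA had 140.9 and 139.4 CPM in untreated cells, 80.1 and 96.1 in Tm, 80.8 and 109.2 in Tm + ISRIB, and 92.3 and 183.0 in ISRIB. All Tm and Tm + ISRIB libraries were below the untreated pair, but the ISRIB libraries lay on both sides of it. As for CAD, such separation from the untreated pair was found in 60.5% (Tm) and 63.1% (Tm + ISRIB) of all transcripts. The change with Tm was -0.67 on the log2 scale (SE 0.251, adjusted p = 0.14), which did not pass the threshold. It did pass with the replicate letter as a block (-0.69, adjusted p = 0.0375) and with no filter on low counts (-0.66, adjusted p = 0.0577). With only the untreated and Tm libraries fitted it also passed (-0.66, SE 0.0732, adjusted p = 4.98e-06). That fit leaves out the ISRIB and Tm + ISRIB libraries, and so their spread. ATIC efficiency followed from these, at 3.95 in both untreated lysates, 6.61 and 5.57 in Tm, and 7.08 and 4.95 in Tm + ISRIB, with a change in Tm of 0.61 (SE 0.257, adjusted p = 0.14).

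**Figure D2:**
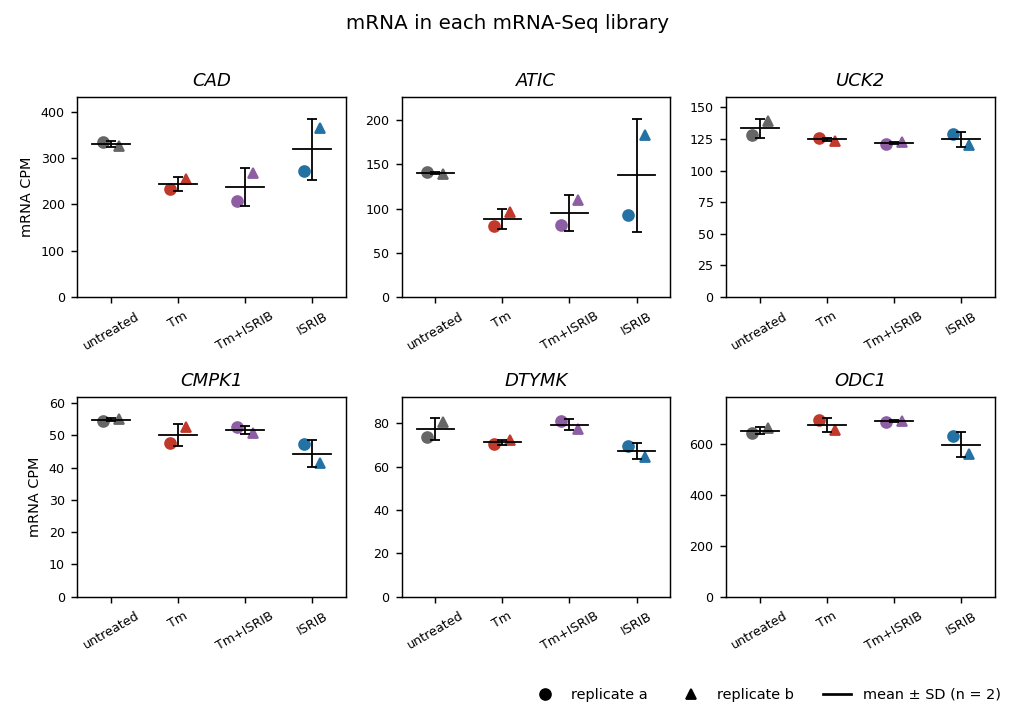
mRNA CPM (vertical axes, from 0) of the 6 transcripts with mRNA counts in the 8 mRNA-Seq libraries, grouped by treatment, with circles for replicate a, triangles for replicate b, and bars for the mean ± SD (n = 2). CAD and ATIC show Tm and Tm + ISRIB libraries below the untreated ones and a wide gap between the 2 ISRIB libraries (272.0 and 365.8 for CAD). Pairs lay apart from the untreated pair, in either order, for 60.5% (Tm) and 63.1% (Tm + ISRIB) of all transcripts. ODC1 stays between 562.5 and 693.7.

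UCK2 phosphorylates uridine and cytidine and so brings salvaged nucleosides into the pyrimidine pool. Its RPF level was 117.4 and 126.8 CPM in untreated cells, 102.3 and 111.7 in Tm, 129.4 and 110.3 in Tm + ISRIB, and 126.8 and 127.7 in ISRIB. The Tm libraries were below the untreated ones, but these pairs also lay apart, in either order, for 51.3% of all transcripts, and the change of -0.20 on the log2 scale did not pass (SE 0.0931, adjusted p = 0.19). Its mRNA stayed within 120.5 to 138.9 CPM over the 8 libraries, and its efficiency within 0.815 to 1.07.

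CMPK1, which phosphorylates CMP, UMP and dCMP, had footprints that ran from 114.3 to 124.8 CPM over the 8 libraries, and the change with Tm was 0.03 on the log2 scale (95% interval -0.15 to 0.20, adjusted p = 0.90). Its mRNA was 54.6 and 55.1 CPM in untreated cells, 47.6 and 52.4 in Tm, 52.6 and 50.8 in Tm + ISRIB, and 47.2 and 41.4 in ISRIB. The lowest value belonged to ISRIB b, and the difference between ISRIB and untreated cells was -0.30 on the log2 scale (SE 0.0878, adjusted p = 0.17). Without ISRIB a that difference was -0.41 and passed the threshold (adjusted p = 0.0469).

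DTYMK makes dTDP from dTMP, the step through which thymidine nucleotides from both synthesis and salvage pass. Its RPF level was 69.0 and 85.4 CPM in untreated cells, 87.2 and 77.4 in Tm, 74.5 and 67.2 in Tm + ISRIB, and 74.0 and 84.0 in ISRIB. The untreated pair alone spanned nearly the whole range. Efficiency was 0.933 and 1.06 in untreated lysates, 1.24 and 1.07 in Tm, 0.919 and 0.866 in Tm + ISRIB, and 1.06 and 1.30 in ISRIB. It was 0.38 lower on the log2 scale in Tm + ISRIB than in Tm, opposite in sign to ODC1, but the difference did not pass (SE 0.148, adjusted p = 0.18) unless only those 2 groups were fitted (adjusted p = 0.0598).

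RRM2 is the small subunit of ribonucleotide reductase, the enzyme that makes deoxynucleotides, and is known to rise in cells that replicate DNA. Its RPF level, scaled over all transcripts of the Ribo-Seq libraries, was 403.5 and 443.9 CPM in untreated cells, 455.2 and 465.4 in Tm, 396.1 and 385.3 in Tm + ISRIB, and 431.5 and 432.8 in ISRIB. The Tm libraries were the highest and the Tm + ISRIB libraries the lowest of the 8. Among 10970 transcripts with both assays, RPF pairs often lay apart, in either order. The share was 51.3% for Tm against untreated, 55.4% for Tm + ISRIB against Tm and 41.4% for Tm + ISRIB against untreated. In Tm the change was 0.12 on the log2 scale (SE 0.0691, adjusted p = 0.32). In Tm + ISRIB against Tm it fell by 0.24 (SE 0.07, adjusted p = 0.026), with 17.4% of the 12242 transcripts called in that fit. The call was lost without Tm b (-0.22, adjusted p = 0.153), without Tm + ISRIB a (-0.26, adjusted p = 0.115) or without Tm + ISRIB b (-0.22, adjusted p = 0.148). The difference between the Tm effects with and without ISRIB was -0.26 (SE 0.0978, adjusted p = 0.14), and it passed without untreated b (-0.34, adjusted p = 0.0273).

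The start codons of the nucleotide enzymes are shown beside that of ODC1 because footprints of these mRNAs did not pass the test with Tm. Each line gives 9 bases before the ATG, the ATG in capitals and 1 base after, from the GENCODE v29 transcript with the counted coding length.
CAD: tcccttcccATGg
ATIC: cctgcagccATGg
UCK2: gcgcgaaccATGg
CMPK1: gcgcggtgtATGc
DTYMK: tggacagtcATGg
RRM2: gcgcagccaATGg
Their leaders were 162 nt (CAD), 326 nt (ATIC), 303 nt (UCK2), 149 nt (CMPK1), 208 nt (DTYMK) and 291 nt (RRM2), all shorter than that of ODC1, and for RRM2 a second transcript of the same coding length has a leader of 51 nt. Neither of these RRM2 transcripts has a principal rank in GENCODE v29, unlike those used for the other genes. The leaders of CAD, ATIC, CMPK1 and RRM2 held no ATG. UCK2 had an ATG 222 nt before its start codon that is followed at once by a stop codon. DTYMK had one 53 nt before its start codon, whose frame of 26 codons in all ends inside the coding sequence. SRM, a polyamine gene whose footprints also fell with Tm and which is described below, has a leader of 81 nt with no ATG. Whether leader length or upstream ATGs bear on the footprint changes was not tested.

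Counted over the members, Tm changed RPFs in 1 of 7 (ODC1, lower) against a background of 13.5% of all transcripts called. Tm + ISRIB against Tm changed RPFs in 2 of 7 (ODC1 higher, RRM2 lower) against 17.7%. Neither share stood far from its background at this number of genes, and the median change over the 7 was -0.0565 with Tm, beside -0.00795 over all transcripts. For mRNA, 1 of 6 (CAD, lower) was called with Tm, against 11% of transcripts, a share that rests on all libraries, since 214 transcripts were called without untreated a and 0 without untreated b, Tm a or Tm b (edgeR). In Tm + ISRIB against Tm no member was called in mRNA and none had an unadjusted p under 0.05, and of all transcripts 0% were called, with 198 at an unadjusted p under 0.05 and 0 by DESeq2. For translational efficiency, 1 of 6 (ODC1) was called in each of these comparisons, against 16% with Tm and 6.11% for Tm + ISRIB against Tm. Both comparisons share the Tm libraries, so a fall in one and a rise in the other are not separate observations.

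**Figure D3:**
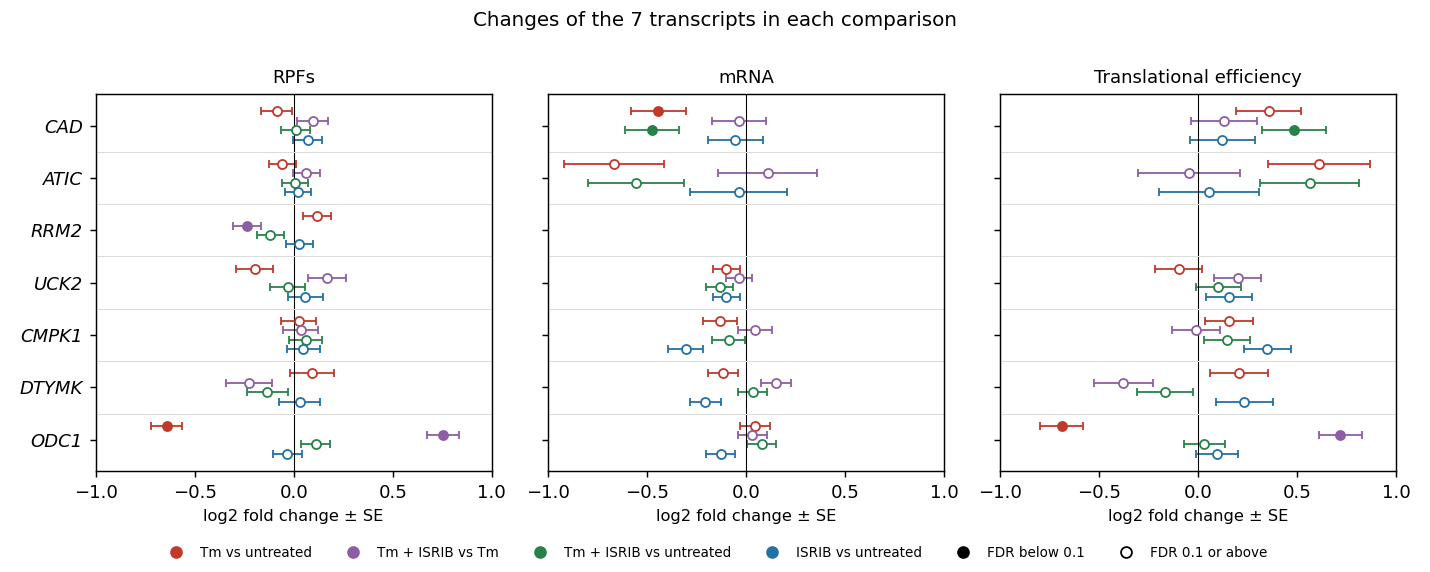
Log2 fold change ± SE (horizontal axes) of RPFs, mRNA and translational efficiency for each transcript in 4 comparisons, marked by colour, with filled points for an FDR below 0.1 and open points for the rest. ODC1 has filled RPF points at -0.64 and 0.75 and filled efficiency points at -0.69 and 0.72, with mRNA points near 0, and RRM2 has no mRNA or efficiency points.

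Cells given Tm and ISRIB together were also compared with untreated cells. No member passed in RPFs, none had an unadjusted p under 0.05 and DESeq2 called none, with changes between -0.13 (DTYMK) and 0.11 (ODC1), beside 2.65% of all transcripts. In mRNA, CAD was the 1 member called, beside 14.2% of transcripts, and in efficiency CAD was again the 1 called, beside 8.84%. ODC1 efficiency differed from untreated cells by 0.03 on the log2 scale (95% interval -0.17 to 0.24, adjusted p = 0.90).

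No member passed the test with ISRIB alone. RPF changes against untreated cells ran from -0.03 (ODC1) to 0.07 (CAD), with no unadjusted p under 0.05 and none called by DESeq2, beside 0.0182% of transcripts called. For ODC1 the 95% interval was -0.18 to 0.11, which leaves out a fall as large as that seen with Tm. In mRNA all 6 values were negative, from -0.30 (CMPK1) to -0.04 (ATIC), none passed, 2 had an unadjusted p under 0.05 (CMPK1 and DTYMK), and 1.15% of transcripts were called. In efficiency 1 (CMPK1, 0.35, adjusted p = 0.36) had an unadjusted p under 0.05, beside 0.182% of transcripts called. DESeq2 called no member in either. These values rest on the ISRIB mRNA pair noted above. Without ISRIB a the mRNA differences of CAD and ATIC turned to 0.14 and 0.38, and that of ODC1 was -0.23. Without ISRIB b that of ATIC was -0.60.

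**Figure D4:**
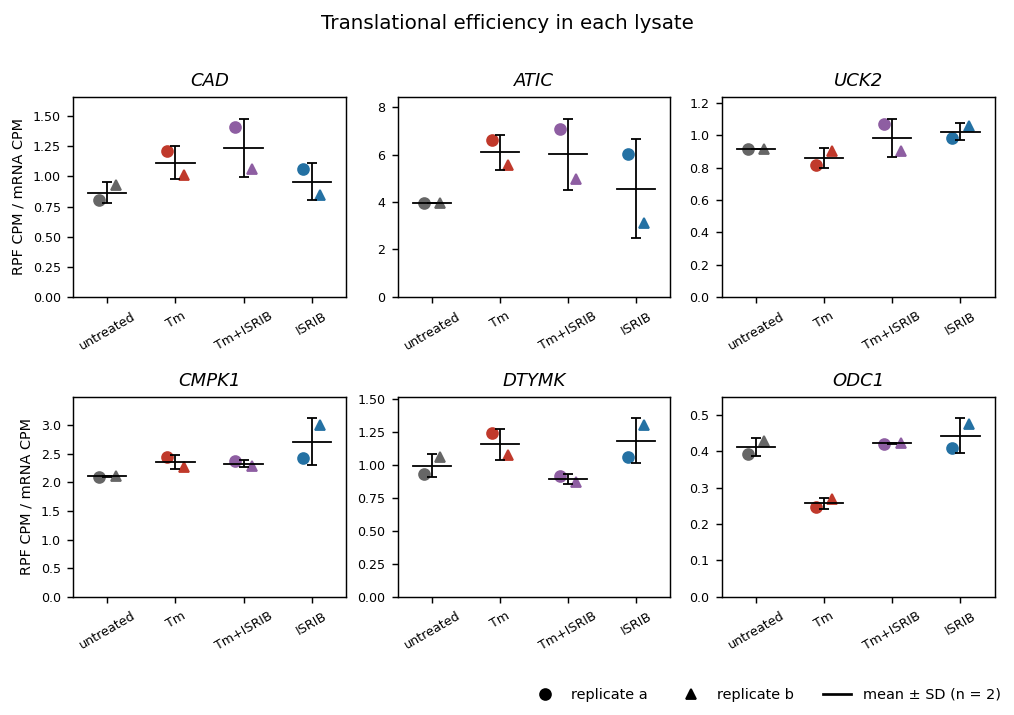
Translational efficiency, RPF CPM over mRNA CPM (vertical axes, from 0), of the 6 transcripts with mRNA counts in the 8 lysates, grouped by treatment, with circles for replicate a, triangles for replicate b, and bars for the mean ± SD (n = 2). ODC1 efficiency is 0.246 and 0.268 in Tm and at least 0.394 in the other 6 lysates, while ATIC spreads from 3.10 to 7.08 with the largest gap between the ISRIB lysates.

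The other genes of these pathways were read from textbook lists of 70 genes in 7 groups, of which 17 had a symbol here, the 7 members and 10 more. Among the 10, RPFs in Tm rose in 1, fell in 2 and did not pass in 7, beside the same background of 13.5%. The closest to ODC1 in pathway was SRM, spermidine synthase, which turns putrescine into spermidine. Its RPF level was 189.7 and 204.8 CPM in untreated cells, 122.8 and 113.0 in Tm, 187.1 and 175.9 in Tm + ISRIB, and 186.9 and 183.5 in ISRIB. The Tm libraries were again below all others. Such pairs lay apart, in either order, for 51.3% (Tm against untreated) and 55.4% (Tm + ISRIB against Tm) of all transcripts. SRM footprints fell by 40.1% with Tm (log2 -0.74, SE 0.0836, adjusted p = 2.6e-07), and were 1.53-fold higher in Tm + ISRIB than in Tm (adjusted p = 7.1e-06). Unlike ODC1 mRNA, SRM mRNA had lower values in Tm, 68.8 and 80.2 CPM against 102.8 and 95.2 in untreated cells (log2 -0.41, SE 0.139, adjusted p = 0.11), and its efficiency change with Tm did not pass (-0.33, adjusted p = 0.21). In Tm + ISRIB against Tm SRM efficiency rose by 0.52 (SE 0.166, adjusted p = 0.094), a call lost with library totals in place of TMM, with the lysates matched, or without any one of the 4 libraries (0.34 to 0.68). Like ODC1, SRM passed the test of the difference between the Tm effects in RPFs, at 0.71 on the log2 scale, beside 6.9% of all transcripts. The RPF calls of SRM held without any single library. ADC, the third polyamine gene with a symbol, had 3 to 12 footprints per library, which left its RPF change with Tm at an SE of 0.592.

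Of the remaining pathway genes, ADSS, which commits inosine monophosphate to adenine nucleotides, fell in RPFs with Tm by 0.28 on the log2 scale (SE 0.0915, adjusted p = 0.052). It rose by 0.33 in Tm + ISRIB against Tm (SE 0.0935, adjusted p = 0.019), and its efficiency rose by 0.44 (SE 0.128, adjusted p = 0.069). The fall was lost without untreated b or Tm b (-0.22 and -0.20), the RPF rise without Tm b (0.25), and the efficiency rise without any one of the 4 libraries (0.32 to 0.57). With library totals or with DESeq2 the fall of ADSS was -0.23 and -0.27 and did not pass. DGUOK, the mitochondrial deoxyguanosine kinase, rose in RPFs with Tm by 0.38 (SE 0.108, adjusted p = 0.025), from 43.2 and 45.3 CPM to 57.0 and 58.5, a call lost without Tm a (0.40) or without Tm b (0.36). CTPS1, AK4, NME7, AMPD2 and GUK1 passed in RPFs in neither Tm against untreated cells nor Tm + ISRIB against Tm, with Tm values between -0.15 (GUK1) and 0.09 (NME7). By list, Tm lowered footprints in 2 of 3 polyamine genes and 1 of 2 de novo purine genes, and raised them in 1 of 2 salvage genes, beside 13.5% of all transcripts called in either direction. The purine and salvage calls are those of ADSS and DGUOK, which were lost without single libraries. None passed with Tm among 2 de novo pyrimidine genes, 6 nucleotide kinases, 1 deoxynucleotide gene and 1 AMP deaminase by edgeR, nor did any have an unadjusted p under 0.05. The median change with Tm was 0.00457 over the kinases. Over the 3 polyamine genes, of 12 in the list, the values were -0.64 (ODC1), -0.74 (SRM) and 0.73 (ADC, with few counts), so no group value is given.

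Among 1521 other named transcripts with at least 10 RPF CPM, the pattern of ODC1 over the 8 Ribo-Seq libraries was closely matched by RPL14, the nearest, and RPL11, which encode ribosomal proteins. The root mean square difference of their centred log2 levels from those of ODC1 was 0.0795 and 0.0869. RPL14, for example, had 807.2 and 904.0 RPF CPM in untreated cells, 603.5 and 637.4 in Tm, and 944.1 and 913.8 in Tm + ISRIB.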

How the data were processed

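Ribo-Seq and mRNA-Seq were made from the same HEK293T lysates (16 libraries). Per the study's methods and the labels, the authors added cycloheximide, digested part of each lysate with RNase I, aligned reads to hg19 and counted reads per transcript. The submitters' processing notes name Bowtie 1.0.0 and TopHat2 2.0.7 and 2.0.10. The deposited values are raw counts per transcript, with no normalization, over the coding sequence less 20 codons.

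Assays were joined by identifier without version and equal counted length (19044 transcripts). Transcripts that passed edgeR filterByExpr (minimum count 10) in both assays were tested with edgeR 4.0.16 in R 4.3.3 (TMM, quasi-likelihood, all 4 treatments in 1 fit, Benjamini-Hochberg FDR 0.1). Translational efficiency was the assay by treatment interaction over both assays. RRM2 was fitted over all Ribo-Seq transcripts. Standard errors are the fold change over the root of F, and intervals are 1.96 SE wide on each side. The fits were tested on simulated counts. With 2 against 2 samples an exact permutation test cannot go below 0.33, so single values were not permuted. Replicates are biological per the methods. p-values measure only the spread between these samples. Replicate spread as edgeR's common coefficient of variation came to 5.62% for footprints and 6.7% for mRNA.

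Members and gene lists were chosen with earlier results of these data known. All 7 members are named, ATF4 as a check, pathway genes past the FDR in RPFs or efficiency in Tm or in Tm + ISRIB against Tm, and the 3 named transcripts nearest to a member called in RPFs with Tm. Other pathway genes are named to complete the list, and some genes that the rule or the list would name are not reported here. Symbols came from the part of the study's gene table held here, names only. Leaders came from GENCODE v29. Alternatives were DESeq2 1.42.0 (Wald test or size factors), library totals, no filter, only the treatments compared, a replicate block, a lysate block, no join, and each replicate left out.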

Additional observations from a re-analysis of the deposited data

Results flagged for a closer look

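The Tm effect on ODC1 differed between cells with and without ISRIB by the test of that difference itself. On the log2 scale the difference was 0.7842 in RPFs and 0.623 in translational efficiency. Both Tm + ISRIB libraries lay above both Tm libraries in RPFs, and both lysates likewise in efficiency. Such pairs lay apart, in either order, for 55.4% of all transcripts in RPFs and 50.4% in efficiency. The RPF difference kept its call without any single library, and the efficiency difference did not, as given with ODC1 above. Groups of 2 samples were too small for a test of single outlying samples.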

How the results depend on the processing

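The ODC1 calls in RPFs (Tm, Tm + ISRIB against Tm, and the difference between the Tm effects) and its efficiency calls in the first 2 of these comparisons kept their direction and side of the threshold under every alternative run. Of 892 alternative values of single members, 810 kept both, 22 newly passed, 19 no longer passed and 41, in 29 results of which 0 had passed, changed sign. With library totals in place of TMM, values of the other sign were -0.013 (CMPK1 RPFs, Tm + ISRIB against Tm), -0.0035 (DTYMK mRNA, Tm + ISRIB against untreated) and -0.0054 (ATIC RPFs, ISRIB). The cause of the changes listed here was not tested. Leaving out a replicate makes 1 group rest on a lone library that is assumed to vary like the others, and depth (3001612 RPF counts in Tm b) limits the genes with fewest footprints.

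Members called for mRNA with Tm went from 1 to 2 with no filter, under the replicate block or with only the treatments compared, the added one being ATIC, and to 0 with any replicate of these groups left out. For efficiency with Tm the count went from 1 to 3 with library totals, under the replicate block or with only the treatments compared (CAD and ATIC added), and to 2 with no filter or a lysate block. For efficiency in Tm + ISRIB against Tm it was 2 with only the treatments compared. For mRNA in Tm + ISRIB against untreated it was 2 with no filter, under the replicate block or with only the treatments compared, and for efficiency 2 under the last pair. For RPFs in the difference of Tm effects it was 2 with library totals. With a replicate left out the counts ran from 1 to 2 for RPFs in Tm + ISRIB against Tm, 0 to 1 for mRNA and for efficiency in Tm + ISRIB against untreated, 0 to 2 for mRNA with ISRIB, and, in the difference of Tm effects, 1 to 3 for RPFs and 0 to 1 for mRNA and efficiency.

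The labels do not say what the letters a and b share, and samples were not treated as paired: same-letter correlations of deviations were -0.11 to 0.17 in Ribo-Seq and -0.28 to 0.0043 between untreated and treated groups' mRNA-Seq. Between the 3 treated groups' mRNA-Seq they were 0.13 (Tm and Tm + ISRIB), 0.15 (ISRIB and Tm) and 0.59 (ISRIB and Tm + ISRIB). What lies behind these values was not tested. The replicate block moved mRNA calls over all transcripts from 1209 to 1780 with Tm and from 1558 to 2042 in Tm + ISRIB against untreated. With the letters crossed and only those treatments compared, an alternative chosen after seeing the data, the latter was 4061, with 3 members, and ISRIB against untreated 17. The fits of those treatments without a block gave 2966 and 0.

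Over all transcripts DESeq2 called 744, 1008, 84 and 349 in RPFs with Tm, in Tm + ISRIB against Tm, in Tm + ISRIB against untreated and in the difference of Tm effects (edgeR 1485, 1945, 291 and 757). It called 695 and 778 in mRNA (1209 and 1558), and 406 and 611 in efficiency for Tm + ISRIB against Tm and against untreated (670 and 970), and for ISRIB alone 41 in efficiency (20). Only the treatments compared gave 3152 and 2966 in mRNA, 1034 in efficiency for Tm + ISRIB against Tm, 185 in RPFs for Tm + ISRIB against untreated, and with ISRIB alone 1, 0 and 0 in RPFs, mRNA and efficiency. No join gave 4777, 5722 and 532 in mRNA for Tm, Tm + ISRIB and ISRIB against untreated. With a replicate left out, totals ran from 636 to 1470 in RPFs, 0 to 214 in mRNA and 524 to 1028 in efficiency with Tm, 769 to 1458 in RPFs and 72 to 214 in efficiency for Tm + ISRIB against Tm, 18 to 701, 0 to 338 and 84 to 664 for Tm + ISRIB against untreated, and 222 to 1174 in RPFs and 2 to 347 in efficiency for the difference of Tm effects. No filter gave 436 in RPFs for Tm + ISRIB against untreated, and for ISRIB 13, 214 and 33.

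With a replicate left out, these uncalled member values changed sign, as log2 ranges. RPFs: with Tm, DTYMK -0.045 to 0.27 and CAD -0.16 to 0.0067; in Tm + ISRIB against Tm, CMPK1 -0.018 to 0.082; in Tm + ISRIB against untreated, CAD -0.067 to 0.097, UCK2 -0.15 to 0.082, DTYMK -0.27 to 0.039 and ATIC -0.034 to 0.048; with ISRIB, CAD -0.0067 to 0.15, RRM2 -0.039 to 0.10, DTYMK -0.11 to 0.20, ODC1 -0.11 to 0.057 and CMPK1 -0.017 to 0.10. The mRNA ranges in Tm + ISRIB against Tm were ATIC -0.13 to 0.31, CMPK1 -0.021 to 0.12, CAD -0.23 to 0.13 and ODC1 -0.0068 to 0.074. Against untreated, DTYMK mRNA ran from -0.028 to 0.10 with both drugs, and with ISRIB CAD ran from -0.28 to 0.14 and ATIC from -0.60 to 0.38. In the difference of Tm effects CAD mRNA ran from -0.17 to 0.25. Efficiency ranges in Tm + ISRIB against Tm were ATIC -0.28 to 0.23, CMPK1 -0.070 to 0.038 and CAD -0.060 to 0.34. Against untreated they were ODC1 -0.029 to 0.10 and UCK2 -0.024 to 0.22 with both drugs, and CAD -0.020 to 0.29, ATIC -0.34 to 0.61 and ODC1 -0.015 to 0.22 with ISRIB.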
